A study of Mus musculus with 30 samples.

Results

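Mouse genes that draw neutrophils and monocytes into tissue or keep them alive were followed across a bulk RNA sequencing experiment on 2 mouse tumor cell lines: Cxcl1, Cxcl2, Cxcl3, Cxcl5, Ccl2, Ccl7, Ccl20, Csf1, Csf2 and Csf3. These members were chosen by name, as a list of chemokines and colony-stimulating factors, with earlier results of these data known. They are 10 of the 49315 genes counted. The lines were 6694c2, a pancreatic ductal adenocarcinoma (PDAC) line from mice in which Pdx-driven Cre acts on alleles that include a floxed p53 allele and a YFP reporter, and B16F10, a mouse melanoma line, and each is a single line standing for its tumor type. Cells of either line were cultured for 24 h with vehicle, with IFNγ at 100 ng/mL, with IFNβ at 1000 U/mL or with a STING agonist at 225 μg/mL, and 3 libraries were made for each of the 8 groups. Within a line, every treatment is compared with the same 3 vehicle libraries. No source used here says whether the 3 libraries came from separate cultures, so p-values measure the spread between these libraries, which may be technical.

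Cxcl1, Cxcl2, Cxcl3 and Cxcl5 are CXC chemokines that bind CXCR2 on neutrophils. Ccl2 and Ccl7 bind CCR2 and bring monocytes out of the bone marrow and into tissue, and Ccl20 binds CCR6 on dendritic cell precursors and lymphocytes. Csf1, Csf2 (GM-CSF) and Csf3 (G-CSF) drive macrophages, granulocytes with macrophages, and neutrophils, respectively. Pancreatic tumors are known for secreting such factors, and many of the genes are textbook targets of NF-κB, while interferons act through STAT proteins. The recipients of these signals were not in the dishes: the receptors are discussed below only as genes of the tumor cells.

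The 4 CXC genes are neighbours on chromosome 5, within 146579 bases from Cxcl5 (chr5:90759360-90761624) past Cxcl3 (chr5:90786103-90789600) and Cxcl1 (chr5:90891241-90893115) to Cxcl2 (chr5:90903871-90905938), all on the + strand of GRCm38. Ccl2 (chr11:82035571-82037453) and Ccl7 (chr11:82045712-82047525) lie 8258 bases apart on the + strand of chromosome 11. The other members are Csf2 (chr11:54247271-54249667, - strand), Csf3 (chr11:98701263-98703629, + strand), Ccl20 (chr1:83116766-83119167, + strand) and Csf1 (chr3:107741048-107760469, - strand). RefSeq promoter windows (GRCm38.p6) matched 6 of the 10 genes, and the 250 bases before the start are printed for 4 of them: the Cxcl1, Cxcl2 and Cxcl3 windows because they share an 11-base word, and the Csf1 window because Csf1 was the member that moved in both lines. The windows are Cxcl1 (chr5:90890995-90891244, + strand), Cxcl2 (chr5:90903649-90903898, + strand), Cxcl3 (chr5:90785851-90786100, + strand) and Csf1 (chr3:107760470-107760719, - strand), and capitals mark GGGAATTTCCC, the longest word that the Cxcl1, Cxcl2 and Cxcl3 windows have in common, which has the form of an NF-κB site.
Cxcl1: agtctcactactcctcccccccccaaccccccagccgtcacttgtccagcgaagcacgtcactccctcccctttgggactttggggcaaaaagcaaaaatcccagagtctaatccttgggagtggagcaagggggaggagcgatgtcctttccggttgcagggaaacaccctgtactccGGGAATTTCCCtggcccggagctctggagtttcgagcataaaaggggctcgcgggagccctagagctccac
Cxcl2: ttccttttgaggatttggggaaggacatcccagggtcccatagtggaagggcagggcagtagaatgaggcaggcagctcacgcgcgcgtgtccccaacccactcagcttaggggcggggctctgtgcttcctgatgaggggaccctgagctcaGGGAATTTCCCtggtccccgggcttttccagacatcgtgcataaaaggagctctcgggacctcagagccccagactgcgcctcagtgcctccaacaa
Cxcl3: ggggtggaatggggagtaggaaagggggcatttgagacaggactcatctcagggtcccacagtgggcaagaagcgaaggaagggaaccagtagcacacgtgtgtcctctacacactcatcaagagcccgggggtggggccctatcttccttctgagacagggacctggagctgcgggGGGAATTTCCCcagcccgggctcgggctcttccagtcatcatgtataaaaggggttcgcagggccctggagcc
Csf1: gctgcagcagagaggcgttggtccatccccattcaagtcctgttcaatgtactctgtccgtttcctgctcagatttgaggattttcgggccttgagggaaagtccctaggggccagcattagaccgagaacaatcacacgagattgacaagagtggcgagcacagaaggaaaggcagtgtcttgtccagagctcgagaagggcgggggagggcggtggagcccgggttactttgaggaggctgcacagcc
The word lay 71 bases before the start in Cxcl1, 97 in Cxcl2 and 73 in Cxcl3, counted from its 5′ end. It was picked because these windows share it, and 14 of 32851 RefSeq promoter windows (0.0426%) hold it on either strand, these 3 included. The letters TTCNNNGAA, to which STAT dimers bind, were in none of the 6 windows, against 7.02% of all windows. GAAANNGAA, the core of the interferon-stimulated response element, was in the Csf2 window and in none of the other 5, against 7.13% of all windows on either strand. A match or its absence describes these letters only. The last bases of the Cxcl1 and Cxcl2 windows lie inside the GENCODE gene, which starts slightly further upstream than the RefSeq one. The Csf2 window (chr11:54249900-54250149, - strand) ends short of the GENCODE Csf2 gene (chr11:54247271-54249667). The bases between them were not searched.

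Libraries held between 15543131 and 32266795 reads on genes. Melanocyte markers (Tyr, Dct, Pmel, Mlana, Tyrp1, Mitf and Sox10) summed to 18356 to 18537 CPM (read counts scaled to library size) in B16F10 vehicle libraries and to 83.9 to 87.2 CPM in PDAC ones, and ductal epithelial markers to 13.6 to 19.5 CPM in B16F10 and 13853 to 14835 CPM in PDAC, so each line carried its own markers except Cldn4, which was under 1 CPM in either. Of the 8 leukocyte markers, Itgam, Adgre1, Csf1r and Ly6g stayed under 1 CPM in every library, Ptprc averaged 1.14 to 1.69 CPM in each group, and Lyz2 and Cd68 in B16F10 cells and Cd14 in PDAC cells were higher, with values given beside the results below. Further, the fibroblast markers summed to at most 3.71 CPM. In bulk RNA, fewer cells of a type and less RNA per cell cannot be told apart. Genes specific to a line were also seen at low levels in the other. The 196 genes specific to PDAC cells had at least 50 CPM there with vehicle and under 2% of that in B16F10 vehicle libraries. Their median was 0.207% ± 0.0334 (SD, n = 3) of their PDAC level in B16F10 vehicle libraries and 0.894% ± 0.117 with STING agonist. With IFNγ it was 0.306% ± 0.1135 and with IFNβ 0.371% ± 0.166. The 119 genes specific to B16F10 in turn stood at 0.606% ± 0.0382 in PDAC vehicle libraries, 0.647% ± 0.331 with IFNγ, 0.313% ± 0.0620 with IFNβ and 0.259% ± 0.0417 with STING agonist. Both sets were picked by a low level in the other line's vehicle libraries, which by itself keeps the vehicle shares low. The shares are set beside the results that they move with. Whether these low levels came from RNA of the other line was not tested.

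With vehicle, the lines differed in most of these genes. PDAC cells were high in Cxcl5, Csf2 and Cxcl1, and B16F10 cells in Csf1. Of the 10 members, all of which had at least 10 reads over the 24 libraries, 7 were higher and 1 lower in PDAC than in B16F10 cells at an adjusted p under 0.05 in edgeR's quasi-likelihood test, where 58.0% of the 21138 genes tested were called. The median log2 difference over the 9 members with a read was 4.99 (4.28 with Cxcl3 and Ccl20 at the lower bounds given below), against -0.01 over all genes.

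Cxcl5, a neutrophil chemokine made by epithelia, was the most abundant member per length in PDAC cells. Its CPM with vehicle were 52.6, 54.2 and 64.0 in PDAC libraries and 0.239, 0.160 and 0.117 in B16F10 libraries. The groups were far apart, with a log2 difference of 8.36 (SE 0.173, adjusted p = 3.4e-34, edgeR). The B16F10 level was 0.303% ± 0.109 of the PDAC level, near the 0.207% at which PDAC-specific transcripts as a class were seen in the same libraries. Csf2 had 6.24, 9.65 and 9.88 CPM in PDAC cells against 0.0957, 0 and 0 in B16F10 cells (2 reads in all), a log2 difference of 8.0 (SE 0.421, adjusted p = 3.27e-20, edgeR). Cxcl1 had 9.80, 9.54 and 10.6 CPM in PDAC cells against 0.287, 0.281 and 0.352 CPM in B16F10 cells, a log2 difference of 4.99 (SE 0.253, adjusted p = 9.29e-21, edgeR). Here B16F10 cells held 3.08% ± 0.396 of the PDAC level, which is above the class share of PDAC-specific transcripts.

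The other members higher in PDAC cells were low in either line. Ccl2 had 2.16, 1.51 and 1.89 CPM in PDAC cells and 0.383, 0.0802 and 0.117 CPM in B16F10 cells, without overlap (log2 difference 3.30, SE 0.399, adjusted p = 1.69e-09, edgeR). Cxcl3 and Ccl20 had 66 and 42 reads over the 3 PDAC vehicle libraries and none in B16F10 vehicle libraries, so they were at least 30.5-fold and 19.4-fold higher in PDAC cells when B16F10 is set at a floor of 3 reads over the group, which covers counting error only. Cxcl2 had 2 to 5 reads in each PDAC library and a single read in B16F10 cells, and its call (log2 difference 3.49, adjusted p = 0.0214, edgeR) was lost without B16F10 vehicle replicate 2 or 3 or PDAC vehicle replicate 1 (adjusted p = 0.0808, 0.0827 and 0.0618). Cxcl2 and Cxcl3 transcripts share an identical stretch of 157 bases, and how reads matching both were counted is not given in the sources used here, so the split between them is uncertain. Ccl7 had no read with vehicle in either line, and Csf3 had 2 reads in PDAC cells and 1 in B16F10 cells.

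Csf1, the growth factor on which most macrophages depend, ran the other way. B16F10 vehicle libraries had 24.0, 25.6 and 21.3 CPM and PDAC ones 2.98, 3.68 and 2.87 CPM. It was 7.39-fold lower in PDAC cells (log2 difference -2.89, SE 0.124, adjusted p = 3.26e-23, edgeR), with no overlap. At the 0.606% share of the B16F10-specific genes, Csf1 would stand at 0.143 CPM in a PDAC vehicle library, where 3.18 CPM was measured. The part of B16F10 transcripts in the PDAC value was not tested.

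Per kilobase of transcript (RPKM), the order in PDAC vehicle libraries was Cxcl5 at 30.6 ± 3.31 (SD, n = 3), Csf2 at 10.7 ± 2.54, Cxcl1 at 5.31 ± 0.278, Ccl2 at 1.63 ± 0.288, Csf1 at 0.601 ± 0.0840, Ccl20 at 0.574 ± 0.0716, Cxcl3 at 0.369 ± 0.140, Cxcl2 at 0.104 ± 0.0451 and Csf3 at 0.0275 ± 0.0239. Csf1 and Ccl20 overlapped, as did Ccl20 and Cxcl3, while the ranges of all the other neighbours down to Csf3 were apart. In B16F10 vehicle libraries Csf1 stood at 4.47 ± 0.409 RPKM, and every other member was at or below 0.336 RPKM in each library.

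**Figure D1:**
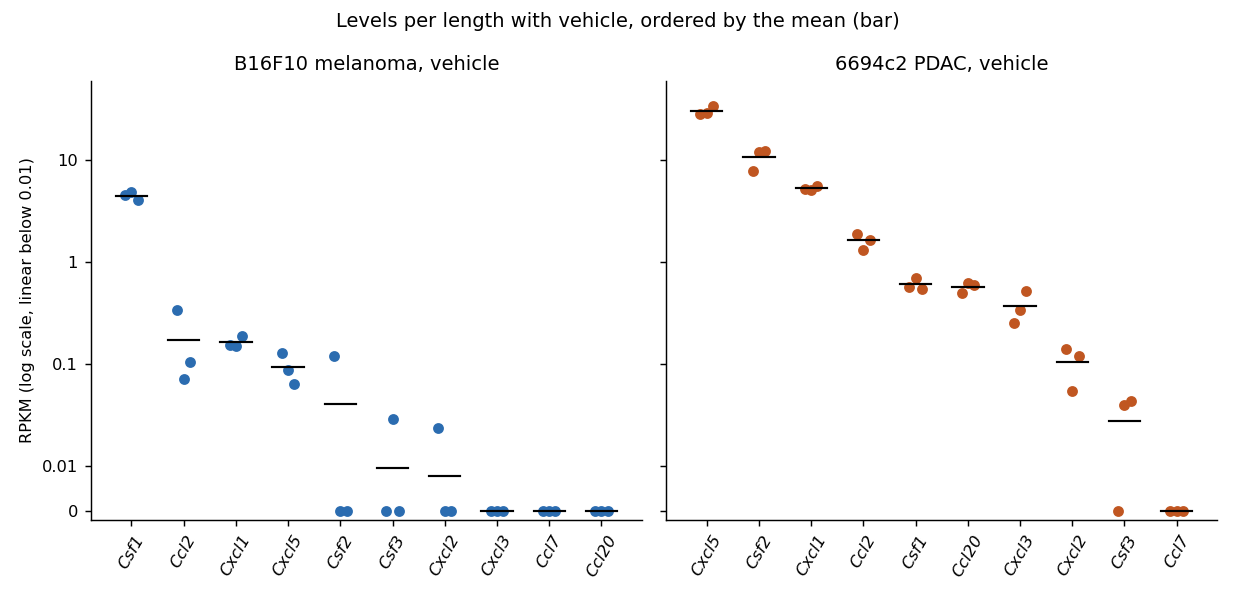
Expression per length as RPKM (log scale, linear below 0.01) of the 10 genes in the 3 vehicle libraries of B16F10 cells (left) and 6694c2 PDAC cells (right); points are libraries and bars are means. Csf1 leads in B16F10 cells at a mean of 4.47 RPKM and Cxcl5 in PDAC cells at 30.6 RPKM.

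In PDAC cells both interferons raised Csf1, Ccl2 and Ccl7, the Ccl7 calls resting on few reads, and lowered Csf2, while Cxcl5 was called in opposite directions. With IFNγ, Csf1, Ccl2, Ccl7 and Cxcl5 were higher and Csf2 was lower, so 5 of 10 members were called, against 13.5% of all genes tested. With IFNβ, Csf1, Ccl2 and Ccl7 were higher and Cxcl1, Csf2 and Cxcl5 lower, so 6 of 10 were called, against 18.2% of all genes. The median log2 fold change of the members was 0.52 with IFNγ and -0.10 with IFNβ, also with Ccl7 at its lower bound, against 0.00 over all genes in either comparison.

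**Figure D2:**
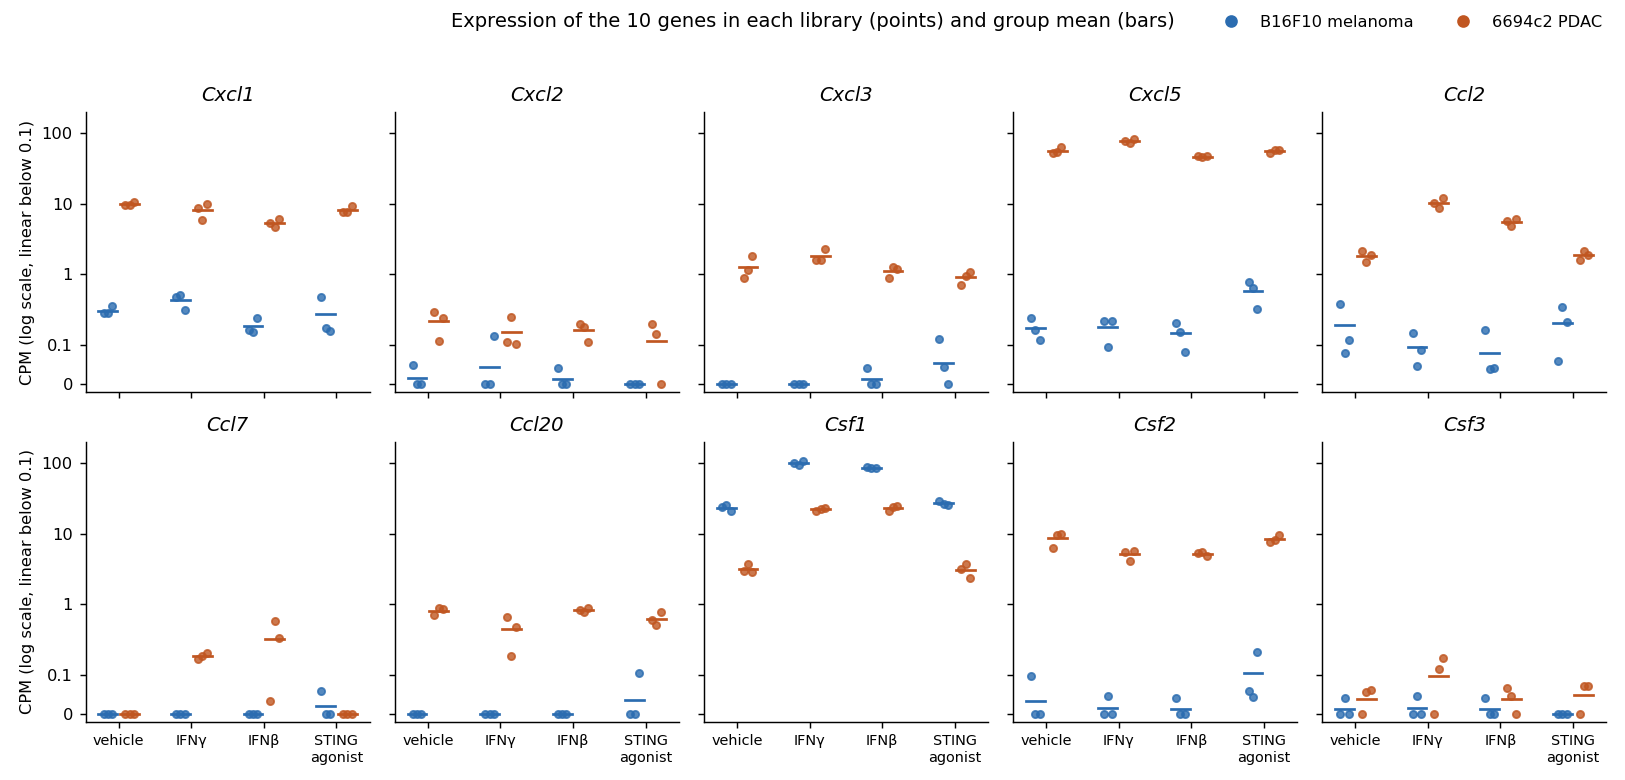
CPM of each gene (log scale, linear below 0.1) in all 24 libraries, by treatment, with B16F10 libraries in blue and 6694c2 PDAC libraries in orange; points are libraries and horizontal bars are group means. Csf1 rises with IFNγ and IFNβ in both lines, Ccl2 rises with both in PDAC cells, and B16F10 libraries stay under 1 CPM for every gene but Csf1.

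Ccl2, the main chemokine for inflammatory monocytes, had 2.16, 1.51 and 1.89 CPM with vehicle in PDAC cells. It had 10.5, 8.65 and 11.9 CPM with IFNγ and 5.66, 4.79 and 6.12 CPM with IFNβ. All 6 interferon libraries were above all vehicle libraries, and the IFNγ libraries were all above the IFNβ ones. Ccl2 was 5.70-fold higher with IFNγ (log2 fold change 2.51, SE 0.185, adjusted p = 9.56e-15) and 3.07-fold higher with IFNβ (1.62, SE 0.193, adjusted p = 8.83e-09) in edgeR's quasi-likelihood test. The antisense gene Gm17268, which overlaps Ccl2, had no read in any library.

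Ccl7, a second CCR2 ligand next to Ccl2, appeared only as a handful of reads. It had no read in the 3 PDAC vehicle libraries, 3, 3 and 6 reads with IFNγ, and 1, 13 and 9 reads with IFNβ. Against a floor of 3 reads over the vehicle group, it was at least 3.23-fold higher with IFNγ and at least 4.98-fold higher with IFNβ. The IFNγ call (adjusted p = 0.0479, edgeR) was lost in 10 of 13 alternative fits, among them each fit that left out 1 IFNγ or vehicle library (adjusted p up to 0.129). The IFNβ call (adjusted p = 0.0091, edgeR) was lost in 1 of 13, without IFNβ replicate 2, which held 13 of the 23 reads (adjusted p = 0.0614).

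Csf1 was the member that rose most among those with many reads. PDAC libraries had 2.98, 3.68 and 2.87 CPM with vehicle, 21.4, 22.4 and 23.4 CPM with IFNγ, and 21.3, 24.1 and 24.6 CPM with IFNβ. The interferon libraries overlapped each other and lay far above vehicle. The rise was 7.11-fold with IFNγ (log2 fold change 2.83, SE 0.139, adjusted p = 1.03e-20) and 7.49-fold with IFNβ (2.91, SE 0.138, adjusted p = 2.36e-21) in edgeR's quasi-likelihood test. At the share of B16F10-specific genes, the Csf1 level of equally treated B16F10 cells would give 0.652 CPM with IFNγ and 0.273 CPM with IFNβ. The part of B16F10 transcripts in the PDAC values was not tested. With either interferon PDAC cells reached about the Csf1 level that B16F10 cells had with vehicle alone (21.3 to 25.6 CPM). This comparison is given as values with no test.

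The 2 CXC genes with many reads moved by under 2-fold. Cxcl5 had 52.6, 54.2 and 64.0 CPM with vehicle, 79.2, 74.0 and 82.8 CPM with IFNγ, and 47.2, 45.9 and 47.1 CPM with IFNβ. The IFNγ libraries were all above vehicle and the IFNβ libraries all below it. Cxcl5 was 1.40-fold higher with IFNγ (log2 fold change 0.48, SE 0.0772, adjusted p = 5.36e-06) and 1.19-fold lower with IFNβ (-0.25, SE 0.0779, adjusted p = 0.0182) in edgeR's quasi-likelihood test. The IFNβ call was lost without vehicle replicate 3, the highest vehicle library (log2 fold change -0.16, adjusted p = 0.235), while the IFNγ call held in all 15 alternative fits.

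Cxcl1, the neutrophil chemokine next in level, had 9.80, 9.54 and 10.6 CPM with vehicle, 8.89, 6.01 and 9.93 CPM with IFNγ, and 5.39, 4.70 and 6.08 CPM with IFNβ. IFNγ libraries overlapped vehicle and IFNβ libraries were all below it. Cxcl1 was 1.80-fold lower with IFNβ (log2 fold change -0.84, SE 0.149, adjusted p = 2.51e-05, edgeR), and the IFNγ difference was not called (-0.23, 95% interval -0.52 to 0.07, adjusted p = 0.395, edgeR). Cxcl3 had 15 to 30 reads per vehicle library and 26 to 68 with IFNγ, and was called with neither interferon (log2 fold change 0.56 with IFNγ, 95% interval -0.06 to 1.18, and -0.18 with IFNβ, 95% interval -0.83 to 0.46). Cxcl2, at 0 to 6 reads in any PDAC library, was too low for a difference of this size to be detectable. Of the 3 genes that share GGGAATTTCCC before their starts, Cxcl1 was called, with IFNβ, and Cxcl2 and Cxcl3 had too few reads to show whether they moved alike.

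**Figure D3:**
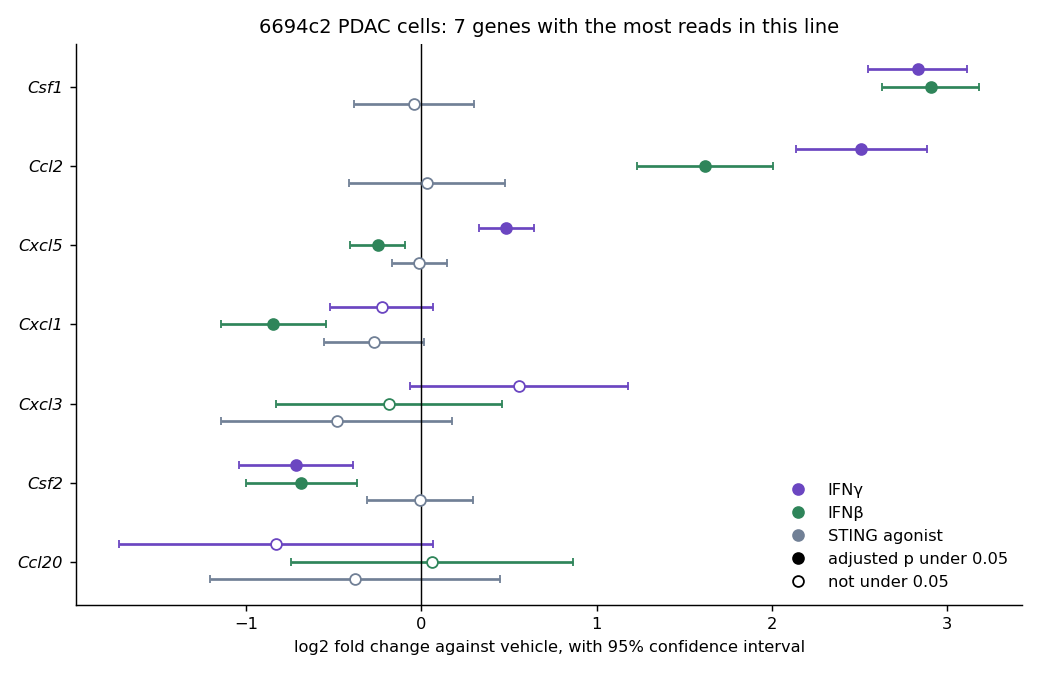
Log2 fold changes against vehicle in 6694c2 PDAC cells for the 7 genes with the most reads in this line, with 95% confidence intervals, for IFNγ (purple), IFNβ (green) and STING agonist (grey); filled points have an adjusted p under 0.05. Csf1 and Ccl2 lie far to the right for both interferons, Cxcl5 lies on opposite sides of 0 for IFNγ (0.48) and IFNβ (-0.25), and no STING agonist point is filled.

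Csf2, which encodes GM-CSF, fell with both interferons. PDAC libraries had 6.24, 9.65 and 9.88 CPM with vehicle, 5.56, 4.05 and 5.71 CPM with IFNγ, and 5.26, 5.52 and 4.90 CPM with IFNβ. The interferon libraries were all below vehicle, although vehicle replicate 1 was close to them. Csf2 was 1.64-fold lower with IFNγ (log2 fold change -0.71, SE 0.161, adjusted p = 0.00108) and 1.61-fold lower with IFNβ (-0.68, SE 0.156, adjusted p = 0.000986) in edgeR's quasi-likelihood test, and the call held in all 15 alternative fits of either comparison. Gm12223, antisense to Csf2, had 20 reads over all libraries and at most 5 in any. Ccl20, a chemokine for CCR6-bearing cells, had 12 to 16 reads per vehicle library and was not called with IFNγ (-0.83, 95% interval -1.73 to 0.06) or IFNβ (0.06, 95% interval -0.74 to 0.86). Csf3 stayed at 0 to 5 reads in every PDAC library.

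Summed per length over the 10 genes, PDAC cells had 49.9 ± 5.61 RPKM with vehicle, 67.6 ± 6.26 with IFNγ, 45.2 ± 0.822 with IFNβ and 48.3 ± 2.87 with STING agonist (SD, n = 3). The 4 CXC genes made up 72.9% ± 2.91 of this sum with vehicle, 70.0% ± 1.33 with IFNγ and 62.8% ± 0.910 with IFNβ. Ccl2 and Ccl7 together went from 3.30% ± 0.833 to 13.7% ± 0.906 and 11.6% ± 0.819, and Csf1 from 1.22% ± 0.225 to 6.31% ± 0.589 and 9.78% ± 0.670. Csf2 and Csf3 together went from 21.4% ± 3.60 to 9.5% ± 0.908 and 14.5% ± 1.15. The PDAC cells therefore kept the neutrophil chemokines as the largest share under every treatment. In B16F10 cells Csf1 alone made up 90.4% ± 4.17 of the sum with vehicle, 97.6% ± 0.273 with IFNγ, 98.3% ± 0.773 with IFNβ and 86.0% ± 0.245 with STING agonist.

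**Figure D4:**
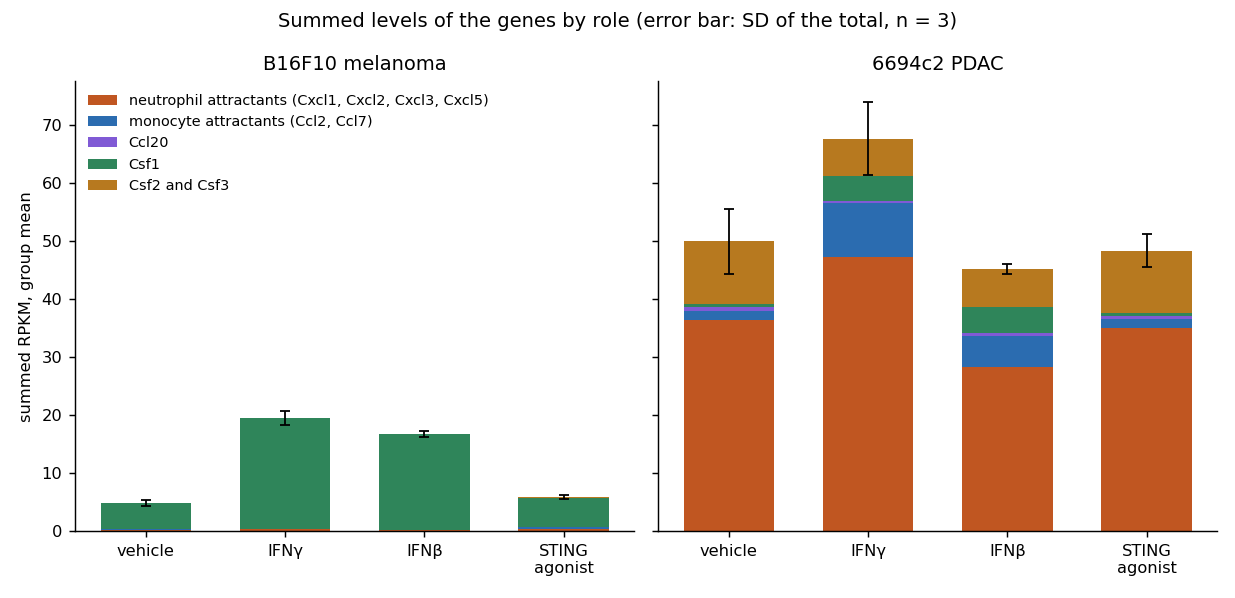
Mean RPKM of the 10 genes summed by role (stacked bars) under each treatment in B16F10 cells (left) and 6694c2 PDAC cells (right), with the SD of the total over 3 libraries. Csf1 makes up 86.0% to 98.3% of the B16F10 bars, and PDAC bars are mostly the 4 CXC genes, with Ccl2, Ccl7 and Csf1 growing with IFNγ and IFNβ.

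The 8 leukocyte markers summed to 39.6 to 43.6 CPM in PDAC cells with vehicle. The sum was 63.5 to 70.9 CPM with IFNγ and 49.7 to 54.7 CPM with IFNβ. Like Ccl2 and Csf1, it was higher with either interferon than with vehicle. It was higher with IFNγ than with IFNβ, as Ccl2 was, whereas Csf1 libraries overlapped between the interferons. Most of the sum was Cd14, at means of 39.1, 63.6 and 49.5 CPM. Cd68, a macrophage marker, averaged 0.886, 1.83 and 1.03 CPM, and Ptprc, which marks all leukocytes, 1.40, 1.40 and 1.45 CPM. The other 5 (Itgam, Adgre1, Lyz2, Csf1r and Ly6g) were under 1 CPM in every PDAC library. The part of such cells in these results was not tested.

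A direct comparison of the interferons was added after the values were seen. In PDAC cells, Ccl2 (log2 difference of IFNβ against IFNγ -0.89, SE 0.149, adjusted p = 1.22e-05), Cxcl5 (-0.73, SE 0.0766, adjusted p = 3.55e-10) and Cxcl1 (-0.62, SE 0.148, adjusted p = 0.00224) were lower with IFNβ than with IFNγ in edgeR's quasi-likelihood test. These 3 of 10 members compare with 13.9% of all genes called. The Cxcl1 call was lost without IFNγ replicate 3 (-0.45, adjusted p = 0.0734). Csf1 and Csf2 were not called, with 95% intervals of -0.14 to 0.29 and -0.30 to 0.36. In B16F10 cells only Csf1 was called (-0.20, SE 0.0642, adjusted p = 0.0194, edgeR), against 14.5% of all genes, and that call was lost without IFNγ replicate 1 or 3 (adjusted p = 0.0649 and 0.21), in the fit of all 24 libraries (0.0796) and in the fit of the 6 libraries compared (0.0531).

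With STING agonist, none of the 10 members was called in PDAC cells, where 0.360% of all genes were. None reached an unadjusted p under 0.05 in edgeR's quasi-likelihood test and DESeq2 also called 0. The 95% intervals of the log2 fold changes were -0.17 to 0.14 for Cxcl5, -0.31 to 0.29 for Csf2, -0.39 to 0.30 for Csf1, -0.41 to 0.48 for Ccl2 and -0.56 to 0.02 for Cxcl1. Rises of the size that either interferon gave Ccl2 and Csf1 thus lay outside these intervals, whereas a fall in Cxcl1 of up to 0.56 on the log2 scale lay within them.

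In B16F10 cells Csf1 was the only member called with the interferons, and by a large amount. It was higher with IFNγ (1 of 10 members, against 22.8% of all genes) and with IFNβ (1 of 10, against 24.0%). The median log2 fold change of the members with a read was 0.08 over 7 members with IFNγ and -0.14 over 8 with IFNβ, against 0.00 and 0.02 over all genes. Csf1 had 24.0, 25.6 and 21.3 CPM with vehicle, 101.6, 93.9 and 106.8 CPM with IFNγ, and 89.5, 86.5 and 85.8 CPM with IFNβ. Every interferon library was far above every vehicle library. The rise was 4.27-fold with IFNγ (log2 fold change 2.09, SE 0.0711, adjusted p = 9.4e-101) and 3.72-fold with IFNβ (1.90, SE 0.0711, adjusted p = 3.63e-89) in edgeR's quasi-likelihood test. The leukocyte markers summed to 11.2 to 15.2 CPM with vehicle, 12.7 to 15.5 CPM with IFNγ and 14.6 to 16.8 CPM with IFNβ. Among them Cd68 averaged 6.65, 8.41 and 10.4 CPM, Lyz2 5.48, 3.94 and 3.89 CPM, and Ptprc 1.14, 1.36 and 1.25 CPM, while the other 5 were under 1 CPM in every B16F10 library. Their part in the Csf1 values was not tested. The remaining members had at most 13 reads in any interferon-treated B16F10 library. At that depth Ccl2, with 1 to 4 reads per library, gave log2 fold changes with intervals from -2.84 to 0.98 with IFNγ and -3.12 to 0.77 with IFNβ, which leave out the rises seen in PDAC cells.

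With STING agonist, no member was called in B16F10 cells, against 3.46% of all genes, and DESeq2 also called 0. Csf1 and Cxcl5 had an unadjusted p under 0.05 in edgeR's quasi-likelihood test. Csf1 had 28.9, 26.5 and 25.9 CPM, all above the vehicle libraries (log2 fold change 0.19, SE 0.0772, adjusted p = 0.209). Cxcl5 had 13, 15 and 6 reads, or 0.777, 0.65 and 0.318 CPM, against 5, 4 and 3 reads with vehicle (log2 fold change 1.74, SE 0.698, adjusted p = 0.2), and the fit of all 24 libraries called it (1.75, adjusted p = 0.0143). The Cxcl5 level with STING agonist was 1.02% ± 0.416 of the PDAC vehicle level, and the PDAC-specific genes as a class stood at 0.894% in these libraries. At that class share of its PDAC vehicle level, Cxcl5 would stand at 0.509 CPM, where 0.582 CPM was measured. The part of PDAC transcripts in this value was not tested. Ductal epithelial markers summed to 102.3 to 135.4 CPM in the same libraries, against 13.6 to 19.5 CPM with vehicle. The other members that were higher in PDAC cells went both ways in reads over the group, from vehicle to STING agonist: Csf2 from 2 to 6, Cxcl3 from 0 to 3, Ccl20 from 0 to 2, Ccl2 from 13 to 13, Cxcl2 from 1 to 0 and Cxcl1 from 22 to 15.

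**Figure D5:**
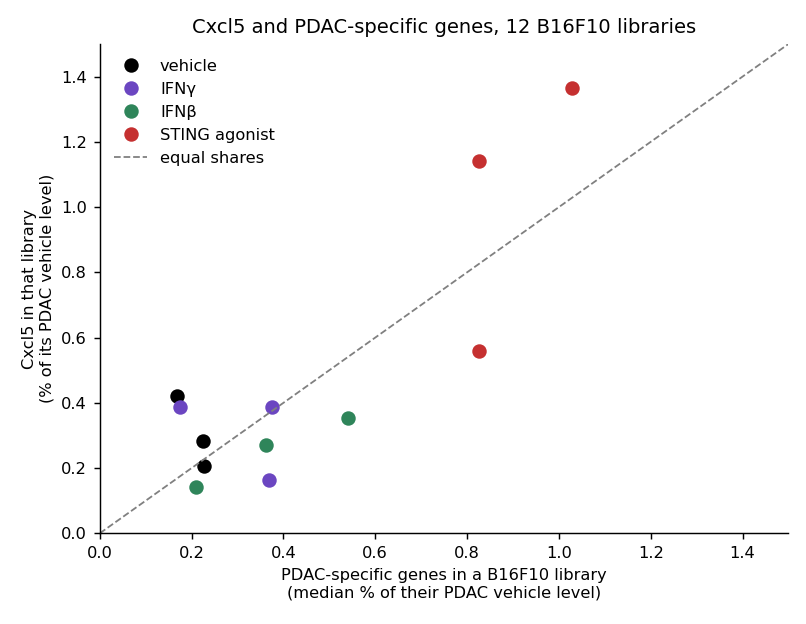
Cxcl5 in each of the 12 B16F10 libraries as a percentage of its mean in PDAC vehicle libraries (vertical) against the median percentage of 196 PDAC-specific genes in the same library (horizontal), with a dashed line of equal shares. The 3 STING agonist libraries lie highest on both axes, at 0.559% to 1.36% for Cxcl5 and 0.827% to 1.03% for the PDAC-specific genes.

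The difference between the lines in the response was tested over all 24 libraries. For IFNγ, 2 of 10 members were called, against 9.47% of all genes: the rise was larger in PDAC than in B16F10 cells by 3.36 (SE 0.762, adjusted p = 0.00217) for Ccl2 and by 0.72 (SE 0.159, adjusted p = 0.0016) for Csf1 on the log2 scale in edgeR's quasi-likelihood test. For IFNβ, 2 of 10 were called, against 12.1%: the difference was 2.73 (SE 0.771, adjusted p = 0.0136) for Ccl2 and 0.98 (SE 0.157, adjusted p = 1.56e-05) for Csf1. The Ccl2 calls rest on few B16F10 reads, and both were lost without B16F10 vehicle replicate 1, which held 8 of the 13 vehicle reads (2.56, adjusted p = 0.117, and 1.94, adjusted p = 0.239). The Csf1 calls held in all 20 alternative fits of either comparison. For STING agonist, 1 of 10 was called, against 2.12%: Cxcl5 at -1.77 (SE 0.438, adjusted p = 0.0173, edgeR), which is the rise in B16F10 reads described above. That call was lost without STING agonist replicate 1 or 2 or vehicle replicate 2 or 3 of B16F10 cells (adjusted p = 0.121, 0.103, 0.0781 and 0.111).

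Genes around the pathway were counted from fixed lists, which were likewise chosen with earlier results of these data known. Of the receptors for these ligands (Cxcr1, Cxcr2, Ccr2, Ccr6, Csf1r, Csf2ra, Csf2rb and Csf3r), 5 of 8 had enough reads to be tested, and 1 was called with each interferon in PDAC cells, against 13.5% of all genes with IFNγ and 18.2% with IFNβ. Csf2ra, the binding subunit of the GM-CSF receptor, rose from 1.19 ± 0.386 to 2.81 ± 0.325 CPM with IFNγ (SD, n = 3; log2 fold change 1.24, adjusted p = 0.00052, edgeR) and to 2.33 ± 0.448 CPM with IFNβ (0.99, adjusted p = 0.00482). It rose where its ligand Csf2 fell. Of the decoy receptors, 2 of 4 were tested, and Ackr3, which takes up Cxcl12, was 8.08 higher on the log2 scale in PDAC than in B16F10 cells with vehicle (35.5 ± 3.04 against 0.126 ± 0.0791 CPM, adjusted p = 1.97e-31, edgeR) and rose to 46.8 ± 1.96 CPM with IFNγ in PDAC cells (0.41, adjusted p = 0.000178, edgeR).

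Of 20 other myeloid attractants and growth factors, 16 were tested, and 9 were higher and 3 lower in PDAC than in B16F10 cells with vehicle, against 58.0% of all genes called in either direction. The largest differences were Cx3cl1, the membrane-bound ligand of CX3CR1, at 61.9 ± 2.10 against 0.413 ± 0.109 CPM, Spp1 (osteopontin) at 833.1 ± 67.1 against 7.99 ± 1.28 CPM, and Kitl (stem cell factor) at 168.5 ± 23.1 against 3.39 ± 0.751 CPM. In PDAC cells 4 rose and 1 fell with IFNγ, against 13.5% of all genes called, and 3 rose and 1 fell with IFNβ, against 18.2%. Cx3cl1 rose to 148.2 ± 5.73 CPM with IFNγ (a log2 rise of 1.27, adjusted p = 3.84e-18 in edgeR) but was 1.29 lower on the log2 scale with IFNβ than with IFNγ. Cxcl16 rose to 19.6 ± 2.53 CPM with IFNγ and 14.1 ± 0.917 CPM with IFNβ from 10.7 ± 0.398 CPM. In B16F10 cells 2 of the 16 rose with IFNγ, Kitl (1.10) and Spp1 (0.66), and 2 with IFNβ, Spp1 (0.68) being the one above 1 CPM, so these shares were below the 22.8% and 24.0% of all genes. Spp1 was the single member of this list called with STING agonist in B16F10 cells, against 3.46% of all genes, at 20 ± 0.921 CPM against 7.99 ± 1.28 CPM (1.31, adjusted p = 8.64e-25, edgeR). In those libraries PDAC-specific genes stood at 0.894% of their PDAC level, against 0.207% with vehicle, and the PDAC level of Spp1 was 833.1 CPM. The part of PDAC transcripts in the Spp1 rise was not tested. In PDAC cells with STING agonist none of the 16 was called, where 0.360% of all genes were.

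Of 16 cytokines, transcription factors and brakes that act on these genes, 15 were tested. In PDAC cells 8 rose and none fell with IFNγ, and 9 rose and none fell with IFNβ, against 13.5% and 18.2% of all genes called in either direction. Zfp36, an RNA-binding protein that speeds the decay of cytokine transcripts, rose from 7.59 ± 0.649 to 25.2 ± 1.85 CPM with IFNγ (1.75, adjusted p = 2.06e-16, edgeR) and 16.7 ± 1.78 CPM with IFNβ (1.17, adjusted p = 7.01e-11). Cebpb, a transcription factor of inflammatory and myeloid genes, rose from 29.2 ± 4.0 to 67.8 ± 6.05 and 54.5 ± 9.32 CPM, and its relative Cebpd from 0.838 ± 0.0689 to 2.43 ± 0.260 and 2.00 ± 0.773 CPM. In B16F10 cells 2 rose and 1 fell with IFNγ, against 22.8% of all genes called, and 4 rose and 2 fell with IFNβ, against 24.0%. Zfp36 rose there too (1.40 with IFNγ, 0.49 with IFNβ), Lif rose with IFNβ (1.42), and Cebpd fell with both (-0.99 and -0.54). With vehicle, 9 of the 15 were higher and 2 lower in PDAC cells, against 58.0% of all genes, led by the NF-κB regulators Tnfaip3 (55.9 ± 3.88 against 1.15 ± 0.201 CPM) and Nfkbiz (26.4 ± 1.23 against 4.83 ± 0.391 CPM), with Cebpd lower (-2.34). With STING agonist, 1 of the 15 fell in B16F10 cells, Nfkb1 (-0.23, adjusted p = 0.03, edgeR), against 3.46% of all genes called. None of the 15 was called in PDAC cells, where 0.360% of all genes were.

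The genes whose pattern was most like each member's were sought among 10800 genes, over 24 libraries, by the correlation of log2 CPM centred on each line's vehicle mean. The libraries share treatments and lines, so these correlations are descriptions. Csf1 was most like Tap1 (r = 0.990), Tapbp (0.989) and Ifi203 (0.989), of which the peptide transporter Tap1 and the loading factor Tapbp serve MHC class I. Ccl2 was most like Slco3a1 (0.966), Ly6a (0.948) and Akap2 (0.925). The other members had weaker matches: the top ones were Guf1 for Csf2 (0.903), Clybl for Cxcl1 (0.849), Gm5617 for Cxcl5 (0.803) and Adamts1 for Cxcl3 (0.737). These members and Ccl2 had at most 15 reads in any B16F10 library, so their values there are mostly counting noise, which limits their correlations.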

How the data were processed

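Polyadenylated RNA was sequenced with paired ends as 24 libraries. Reads were trimmed and aligned with STAR by the authors, who used Rsubread to obtain counts per gene and deposited these raw, 1 library per file. The submitters' notes name mm10, and annotation, strandedness and the handling of multi-mapping reads are not given in the sources used here. Genes with at least 10 reads combined over 24 libraries were kept. Each line's 12 libraries were fitted with edgeR 4.0.16 (limma 3.58.1, R 4.3.3; TMM, quasi-likelihood test, Benjamini-Hochberg adjustment, threshold 0.05), and contrasts between lines over all 24. Standard errors come from the fold change and F statistic. CPM use TMM over 24 libraries, and RPKM the deposited lengths. The fit was tested on simulated data.

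The members and lists were chosen with earlier results of these data known. All 10 members are named. From each pathway list at most 3 called genes per comparison with a group mean of at least 1 CPM are named, by the largest log2 fold change, and other list genes by counts. For likeness, the 3 closest genes with at least 1 CPM in a group of each line were taken, with members of at least 1 CPM. Alternatives were DESeq2 1.42.0, RLE size factors, filterByExpr, no filter, a robust fit, a replicate block, other sets of libraries, each library left out, and removal of genes whose level in the other line was more than 10 times that in the tested one. IFNβ against IFNγ was added after seeing the data. The 6 single-cell samples were not analysed here.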

Additional observations from a re-analysis of the deposited data

Results flagged for a closer look

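The response to a treatment differed between the lines, by a test of the difference itself in edgeR's quasi-likelihood fit with Benjamini-Hochberg adjustment, for 3 members. The log2 difference of PDAC minus B16F10 cells was 3.36 with IFNγ (adjusted p = 0.00217) and 2.73 with IFNβ (adjusted p = 0.0136) for Ccl2, which had 1 to 8 reads in each B16F10 library behind it. It was 0.72 with IFNγ (adjusted p = 0.0016) and 0.98 with IFNβ (adjusted p = 1.56e-05) for Csf1, which had at least 47 reads in every library. For Cxcl5 it was -1.77 with STING agonist (adjusted p = 0.0173), where the 3 B16F10 STING agonist libraries held 34 Cxcl5 reads in all and PDAC-specific genes stood at 0.894% of their PDAC level. The part of those transcripts in the Cxcl5 value was not tested.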

How the results depend on the processing

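Over 453 alternative fits of the 30 member calls, 427 kept the call, 26 lost it and 0 reversed, and 21 of the 30 calls were kept under every alternative that gave a value. The number of members called moved by over 1.5 times in these cases. With STING agonist in B16F10 cells it went from 0 to 1 in the fit of all 24 libraries. For IFNβ against IFNγ in B16F10 cells it went from 1 to 0 in the fit of all 24 libraries and in that of the 6 libraries compared, and ranged from 0 to 1 with each library left out. For the difference between lines it ranged from 1 to 2 with IFNγ and with IFNβ and from 0 to 1 with STING agonist when each library was left out, and with STING agonist it was 0 with genes removed whose level in one line was more than 10 times that in the other, which removes Cxcl5. The cause was not tested.

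Among all genes, the number called with STING agonist ranged from 385 to 1271 in B16F10 cells (732 as reported), from 29 to 155 in PDAC cells (76) and from 185 to 793 for the difference between lines (449). Same-numbered libraries did not deviate together (correlations of -0.14 to 0.127 over 12387 genes), so the numbers were not taken as pairs, and with a replicate block 4 members instead of 5 were called with IFNγ in PDAC cells. Cxcl2, Ccl7 and Csf3 had at most 13 reads in any library, which limits them to large differences.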
